A study of Mus musculus with 8 samples.

Results

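The 9 sterol enzyme genes Sqle, Lss, Cyp51, Msmo1, Nsdhl, Hsd17b7, Ebp, Sc5d and Dhcr7 encode enzymes of the steps that lead from squalene to cholesterol, and their transcripts were measured in liver from mice fed an atherogenic diet or standard chow. The genes were taken by the gene name that the array output gives each non-control probe (Msmo1 appears there under its older symbol Sc4mol), which gave 19 of the 41174 probes. All 19 were detected on all 8 arrays and none was saturated. Male wild-type C57BL/6 mice, aged 14 to 17 weeks at the start, were administered either the standard chow (STD) diet or the atherogenic (ATH) diet, a high-fat and high-cholesterol diet that also holds cholic acid, for 4 weeks. No genetic alteration and no other agent is named for either group. Liver RNA of 4 mice per diet, each on an array of its own, was measured on 1-color Agilent arrays that cover the mouse genome.

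Animal cells build cholesterol from acetyl-CoA by way of mevalonate and squalene. Squalene is oxidized and folded into lanosterol, the first sterol, and lanosterol then loses methyl groups and has its double bonds moved, added or reduced until cholesterol is left. The enzymes sit in the endoplasmic reticulum, and liver is one of the tissues in which they are most active. Many of their genes are targets of SREBP-2, a transcription factor that is released from the endoplasmic reticulum when membrane sterol is low and retained there, with the help of Insig proteins, when sterol is high. Promoters of such targets often hold sterol regulatory elements beside binding motifs of NF-Y and Sp1.

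All values below are log2 processed probe signals from which the 75th percentile of the same array was subtracted, so 1 unit is a 2-fold step, and a log2 fold change is the ATH mean minus the STD mean. On this scale each of the 9 genes was lower in the 4 livers of the ATH diet than in any liver of the STD diet. Diet was tested per probe with limma over all 31056 detected probes, with Benjamini-Hochberg adjustment, and the probe with the highest mean signal stood for each gene. With the false discovery rate held at 1%, Sqle, Cyp51, Msmo1, Nsdhl and Dhcr7 fell, which is 5 of the 9 genes, where 0.335% of all detected probes did. At 5%, 9 of 9 fell, against 4.94% of all probes, and without overlap between diets 9 of 9 were lower, against 13.8%. At 5%, 19 of the 19 probes passed. The median log2 fold change was -1.94 over the 9 genes and -0.15 over all detected probes. With the replicate number as a block, 0 of the 9 and 0 of all probes passed 1% by limma (9856 probes had an unadjusted p below 0.05), and 8 of the 9 passed 5%, against 2.83% of all probes. The unequal-variance test that the study's methods name was run here on the signals scaled as above, not on the authors' GeneSpring values. It called 0 of the 9 at either rate, and 0 probes in all at 1% and 22 at 5% (7105 had an unadjusted p below 0.05). From its own GeneSpring processing the study lists probes changed at 1%, and that list was not set against these calls. With 1 array left out, limma called 0 to 6 of the 9 at 1% and 6 to 9 at 5%.

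The promoters of the 3 genes with the largest differences among those with an entry in the promoter table, Msmo1, Cyp51 and Nsdhl, are shown. All 3 genes were lower on the ATH diet, and a part of the promoter motifs in this was not tested. Each sequence is the 250 bases before the transcription start on the gene's own strand, from RefSeq on GRCm38.p6. Capitals mark the NF-Y motif CCAAT (or ATTGG on the other strand) and the Sp1 motif GGGCGG (or CCGCCC), and no marked match overlaps another. The windows are chr8:64733579-64733828 (minus strand) for Msmo1, chr5:4104698-4104947 (minus strand) for Cyp51 and chrX:72918271-72918520 (plus strand) for Nsdhl.
Msmo1: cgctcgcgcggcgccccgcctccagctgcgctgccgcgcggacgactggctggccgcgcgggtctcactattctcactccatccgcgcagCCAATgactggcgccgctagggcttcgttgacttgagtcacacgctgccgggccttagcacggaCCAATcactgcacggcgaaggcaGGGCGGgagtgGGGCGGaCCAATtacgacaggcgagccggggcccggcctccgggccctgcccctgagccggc
Cyp51: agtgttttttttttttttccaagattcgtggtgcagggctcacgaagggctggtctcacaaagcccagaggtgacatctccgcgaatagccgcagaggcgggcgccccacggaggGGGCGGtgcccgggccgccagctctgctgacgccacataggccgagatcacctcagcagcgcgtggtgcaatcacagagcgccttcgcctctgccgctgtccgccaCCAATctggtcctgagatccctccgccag
Nsdhl: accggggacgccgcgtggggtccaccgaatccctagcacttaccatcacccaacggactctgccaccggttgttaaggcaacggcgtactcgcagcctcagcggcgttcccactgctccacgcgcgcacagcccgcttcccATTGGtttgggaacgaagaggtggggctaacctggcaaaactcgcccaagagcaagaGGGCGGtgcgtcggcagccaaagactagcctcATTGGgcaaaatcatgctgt

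Msmo1 held 3 CCAAT and 2 GGGCGG matches in its window, Cyp51 1 of each, and Nsdhl 2 CCAAT and 1 GGGCGG. Promoters were listed for 8 of the 9 genes, with 10 start sites in all, and Sqle had no entry. At least 1 start site held CCAAT in 8 of these 8 genes (8 of 10 start sites), where 33.8% of 32851 mouse promoters held it in a window of the same length. GGGCGG was found in 8 of 8 genes (9 of 10 start sites), against 32.7% of promoters. The sterol regulatory element core, searched as TCACNCCAC and its reverse complement GTGGNGTGA, was in 0 of the 10 windows and in 1.05% of all promoters. No other form of the element was searched, so this count does not show that the windows lack such elements. In the CCAAT matches of Msmo1 the distances to the start were 160, 96 and 55 bases, in Cyp51 29 bases, and in Nsdhl 109 and 20 bases. The motifs were not particular to genes that fell. Of genes in the related lists below that did not pass 5%, Lbr held 2 CCAAT and 1 GGGCGG matches. Ggps1 held 3 CCAAT and 0 GGGCGG, Por 0 and 4, and Mbtps2, of the sterol regulation list, 0 of either. These matches describe letters in a window, and no binding was measured here.

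Squalene epoxidase, encoded by Sqle, adds the oxygen that makes squalene fit for folding and is a rate-controlling enzyme of the branch. Its single probe (chr15:59397289-59397348 in the array design's mm7 assembly) read 1.95, 2.29, 3.44 and 4.51 in STD diet livers 1 to 4 and -3.10, -3.32, -1.03 and -1.78 in ATH diet livers 1 to 4. The lowest STD liver stood 2.98 above the highest ATH liver. Sqle fell by 5.35 on the log2 scale (SE 0.66, limma adjusted p = 0.0066), a 40.8-fold difference, and ranked 1 of 31056 detected probes from the most negative fold change. With normexp background correction the difference was 25.6-fold (log2 fold change -4.68). It was also the gene with the widest spread within both diets, with an SD of 1.16 in STD livers and 1.09 in ATH livers (n = 4 each).

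**Figure D1:**
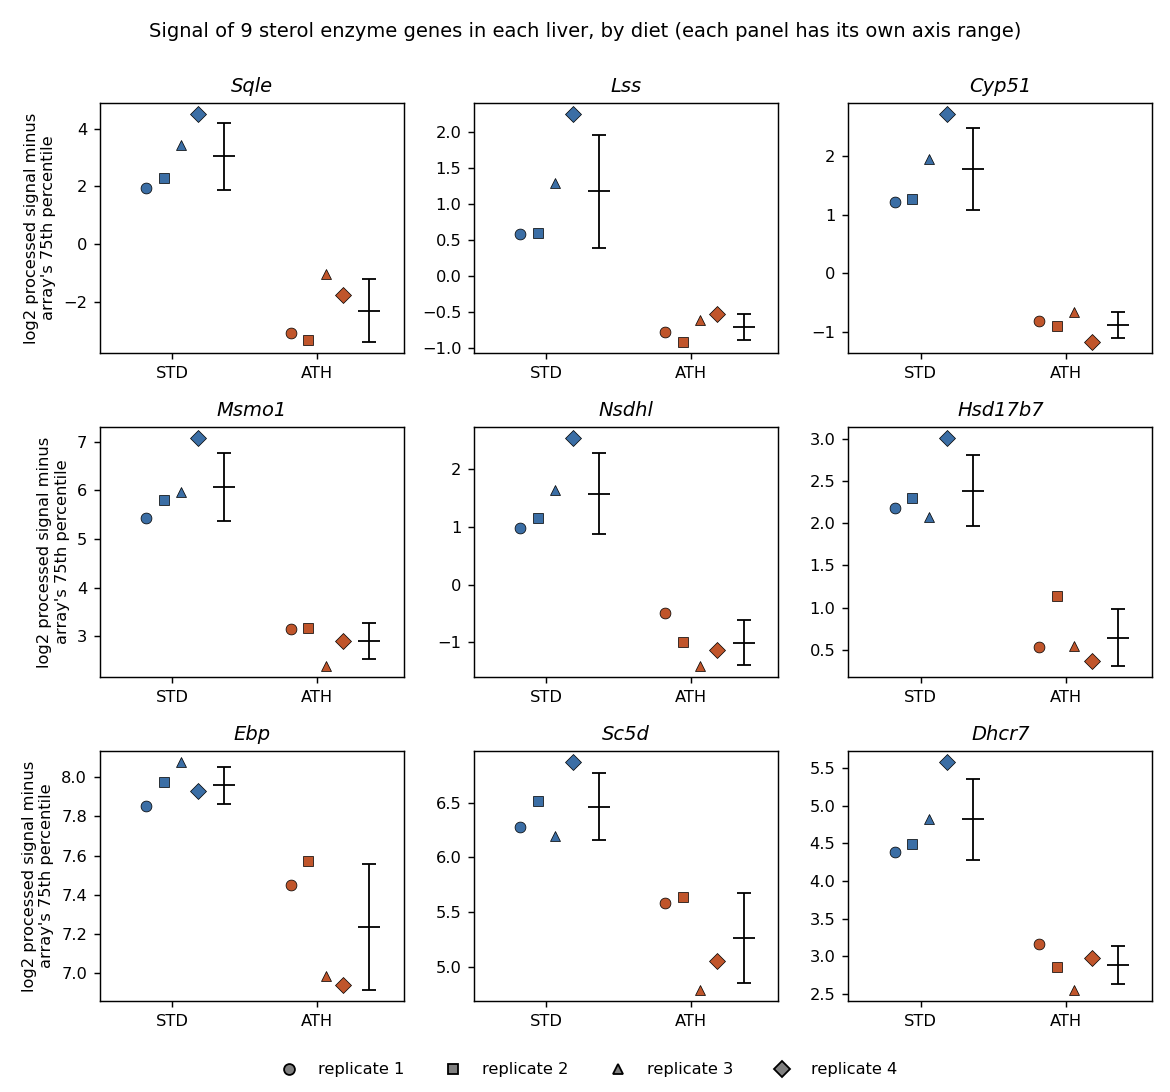
Signal of the 9 genes in each liver, as log2 processed signal scaled to the array's 75th percentile (y axis, own range per panel), by diet (x axis). Symbols are single mice, and the bar beside them is the mean with the SD (n = 4 per diet). In each panel the 4 ATH livers lie below the 4 STD livers, and STD replicate 4 is the highest STD liver in 8 of the 9 panels.

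Lanosterol synthase, encoded by Lss, folds the epoxide into lanosterol. Its standing probe (mm7 chr10:76208898-76208957) read 0.58, 0.59, 1.29 and 2.24 in the STD livers and -0.79, -0.92, -0.62 and -0.53 in the ATH livers. The diets did not overlap, and the STD livers were spread over 1.67 units and the ATH livers over 0.39. Lss fell by 1.89 (SE 0.35, limma adjusted p = 0.0211, 3.7-fold). The other Lss probes gave log2 fold changes of -1.53 (adjusted p = 0.0297) and -1.67 (adjusted p = 0.0323), and neither overlapped between diets. The Lss difference did not pass 5% by limma when STD replicate 3 (adjusted p = 0.0618), ATH replicate 3 (0.0544) or ATH replicate 4 (0.0527) was left out. Within arrays, the Sqle signal minus the Lss signal was lower by 3.46 (SE 0.51) in the ATH livers, so that Sqle changed more than Lss by a two-sided exact permutation test. Its p of 0.0286 is the lowest that the 70 assignments of 4 against 4 arrays allow, and after adjustment over the 8 pairs of consecutive genes it was 0.0457.

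Cyp51, the lanosterol demethylase, is the only cytochrome P450 of this branch. The standing probe (mm7 chr5:4089242-4089301) read 1.22, 1.26, 1.94 and 2.72 on the STD diet and -0.82, -0.89, -0.66 and -1.18 on the ATH diet. STD replicate 4 was the highest liver, and the diets were 1.88 apart at their nearest. Cyp51 fell by 2.67 (SE 0.32, limma adjusted p = 0.0064, 6.38-fold), and its other probes gave -2.80 and -3.05 (limma adjusted p = 0.0066 and 0.0036). The probe with -2.80 is 60 bases long yet spans 407 bases of genome (mm7 chr5:4098039-4098445), so it reads across an exon junction of the spliced transcript. It is printed here with the corresponding Nsdhl probe, which spans 1182 bases (mm7 chrX:68341842-68343023), because both read spliced mRNA. No bases are marked.
Cyp51 probe A_51_P485791: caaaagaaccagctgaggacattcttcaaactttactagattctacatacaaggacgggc
Nsdhl probe A_51_P326942: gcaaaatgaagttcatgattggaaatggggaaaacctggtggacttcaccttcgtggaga

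Msmo1, Nsdhl and Hsd17b7 act in turn to remove the paired methyl groups of the first sterol ring, as oxidase, decarboxylating dehydrogenase and ketoreductase. All of them fell. Msmo1 (mm7 chr8:63138214-63138273) read 5.43, 5.80, 5.97 and 7.07 on the STD diet and 3.15, 3.16, 2.39 and 2.91 on the ATH diet. All ATH livers lay below the lowest STD liver, by 2.27 or more. Its difference of -3.17 (SE 0.34, limma adjusted p = 0.0042, 8.99-fold) ranked 13 from the most negative of all detected probes and was the largest of the 9 after Sqle.

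Nsdhl has 4 probes. The standing probe (mm7 chrX:68344352-68344414) read 0.97, 1.15, 1.63 and 2.52 in STD livers and -0.49, -0.99, -1.40 and -1.13 in ATH livers. The diets did not overlap, with STD replicate 4 the highest and ATH replicate 3 the lowest. It fell by 2.57 (SE 0.34, limma adjusted p = 0.0085, 5.94-fold). The junction probe printed above gave -2.65 and another probe -2.61 (limma adjusted p = 0.0066 and 0.0079). The last, designed on a cDNA clone described as unclassifiable and placed outside the other probes (mm7 chrX:68327722-68327781), gave -1.71 (limma adjusted p = 0.0397, and 0.0501 with the replicate block). This probe was the dimmest of the 4, with means of -1.75 in STD and -3.46 in ATH livers. The part of its low signal in its smaller difference was not tested.

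Hsd17b7 (mm7 chr1:169928936-169928995) read 2.17, 2.30, 2.07 and 3.01 on the STD diet and 0.53, 1.13, 0.54 and 0.37 on the ATH diet. ATH replicate 2 came nearest to the STD livers, at a gap of 0.93. It fell by 1.74 (SE 0.24, limma adjusted p = 0.0102, 3.35-fold), just outside the 1% rate, and its other probe fell by 1.62 (adjusted p = 0.0173). Msmo1 changed more than Nsdhl by 0.60 within arrays (SE 0.13, exact permutation p = 0.0286, adjusted 0.0457). The difference between Nsdhl and Hsd17b7 was -0.83 (SE 0.32) and that between Cyp51 and Msmo1 0.50 (SE 0.27), both with an exact permutation p of 0.0857, so neither pair was separated by this test.

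**Figure D2:**
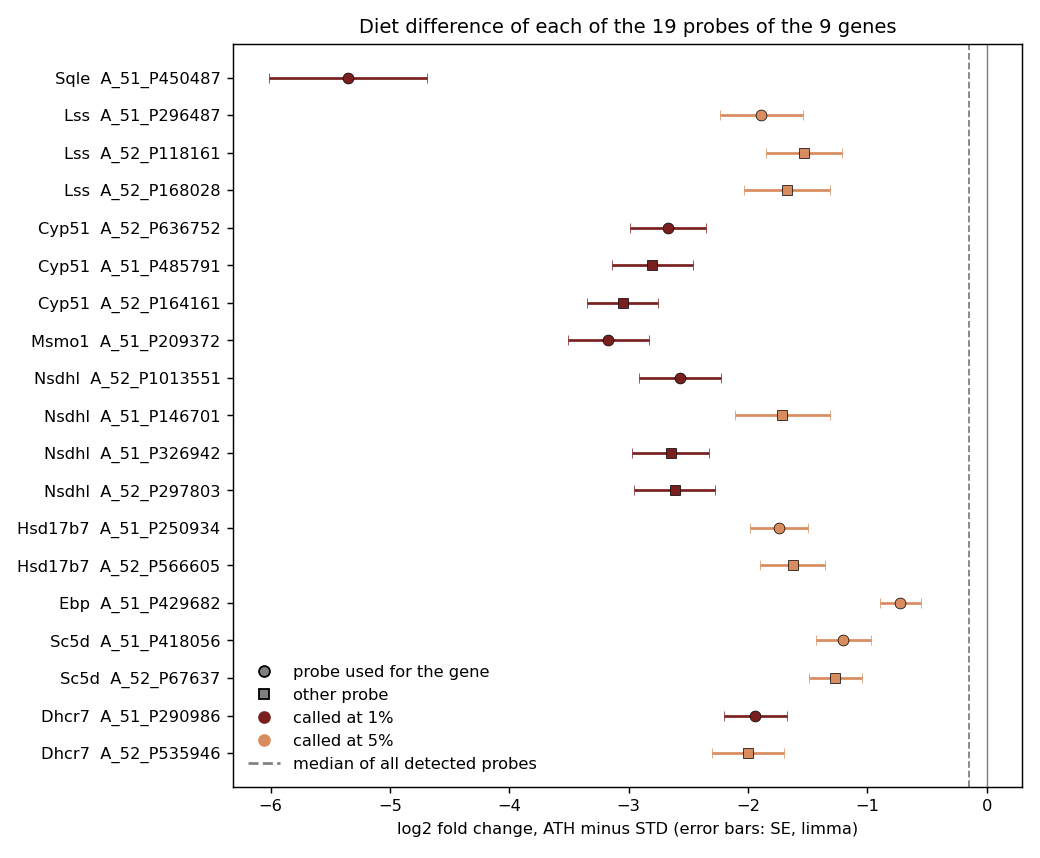
Log2 fold change (ATH minus STD) of each of the 19 probes with its SE from limma (x axis), by gene and probe (y axis). Circles are the probes that stand for a gene, squares the others, dark symbols pass 1% and light symbols 5%, and the dashed line is the median of all detected probes at -0.15. Probes of the same gene lie close together, except for the Nsdhl probe at -1.71.

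Ebp, Sc5d and Dhcr7 rearrange the double bonds of the ring system: Ebp is a sterol isomerase that also binds emopamil, Sc5d a desaturase and Dhcr7 the reductase whose loss in people causes Smith-Lemli-Opitz syndrome. Ebp had the smallest difference of the 9. Its probe (mm7 chrX:6618487-6618546) read 7.85, 7.98, 8.08 and 7.93 on the STD diet and 7.45, 7.57, 6.99 and 6.94 on the ATH diet. The diets were separated by a gap of 0.28. The log2 fold change was -0.72 (SE 0.17, 1.65-fold), which passed 5% by limma without the block (adjusted p = 0.0402) and not with it (adjusted p = 0.0649). With 1 array left out it passed only without ATH replicate 1 or 2 (limma adjusted p = 0.0161 to 0.1029 over the 8 arrays).

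Sc5d has 2 probes. The standing probe (mm7 chr9:42189144-42189203) read 6.28, 6.52, 6.19 and 6.87 in STD livers and 5.58, 5.63, 4.79 and 5.05 in ATH livers. The gap between the diets was 0.56, and ATH replicates 3 and 4 were the lower pair, as for Ebp. Sc5d fell by 1.20 (SE 0.23, limma adjusted p = 0.0245, 2.3-fold). The other, which is designed on a separate cDNA clone, gave -1.27 (adjusted p = 0.0190). With 1 array left out, the standing Sc5d probe likewise passed 5% only without ATH replicate 1 or 2 (limma adjusted p = 0.0127 to 0.0693). Dhcr7 (mm7 chr7:140275628-140275687) read 4.38, 4.50, 4.83 and 5.58 on the STD diet and 3.16, 2.85, 2.55 and 2.97 on the ATH diet. All STD livers were above all ATH livers, by 1.22 or more. Dhcr7 fell by 1.94 (SE 0.26, limma adjusted p = 0.0092, 3.83-fold), and its other probe by 2.0 (adjusted p = 0.0129).

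Within arrays, Hsd17b7 changed more than Ebp by 1.02 (SE 0.26) and Dhcr7 more than Sc5d by 0.74 (SE 0.24), each with an exact permutation p of 0.0286 (adjusted 0.0457). Cyp51 changed more than Lss by 0.79 (SE 0.16) with the same p. Ebp and Sc5d differed by 0.48 (SE 0.19, exact permutation p = 0.0571, adjusted 0.0762). Of the 8 consecutive pairs, 5 were therefore separated and 3 were not. Scaling between arrays cancels in these differences, which show unequal change of probe signals and not that any gene stayed level. A response that depends on signal level does not cancel, and it was not tested. Unscaled, Ebp averaged 16.83 in STD and 16.55 in ATH livers, and Hsd17b7 11.26 and 9.96.

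The livers of the STD diet differed among themselves in the same way for most of the 9 genes. STD replicate 4 was the highest STD liver for 8 of the 9 genes and 18 of the 19 probes, where 23.3% of all detected probes were highest in it. STD replicate 1 was the lowest for 7 of the 9, and the share of all probes lowest in it was not counted. In the ATH livers the highest value fell on replicate 1 for 2 genes, replicate 2 for 4, replicate 3 for 2 and replicate 4 for 1. Of all detected probes, 26.1%, 38.5%, 18.7% and 16.6% were highest in ATH replicates 1, 2, 3 and 4. Over the 36 gene pairs, deviations from the diet means across the 8 arrays had a median Pearson r of 0.63, from -0.548 for Sqle with Ebp to 0.976 for Nsdhl with Dhcr7, and 33 of 36 were above 0. Over the STD arrays alone (n = 4) the median r was 0.851, with 34 of 36 above 0, and over the ATH arrays alone (n = 4) it was -0.02, with 18 of 36 above 0. These are descriptions over arrays that share slides and scaling. The SD was larger in STD than in ATH livers for 7 of the 9 genes, against 34.4% of all detected probes. STD replicate 4 was also the array with the smallest share of spots well above background (72.35%, against 76.10% to 77.27% on the other STD arrays), and the part of this in its high sterol enzyme values was not tested. Without it, the 9 genes had a median log2 fold change of -1.68, 7 of them passed 5% by limma, against 1.01% of all probes, and 2 passed 1%, against 0.0998%.

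**Figure D3:**
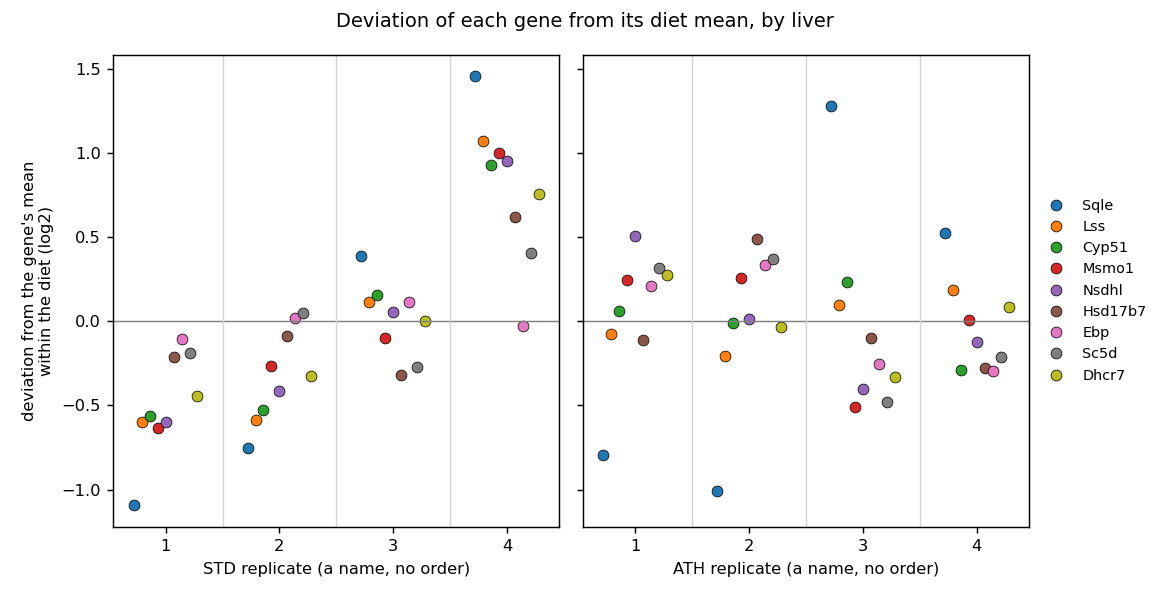
Deviation of each of the 9 genes from its own mean within the diet (y axis, log2), by liver (x axis), for STD livers on the left and ATH livers on the right. In STD replicate 4 all genes but Ebp lie above 0.4, while in the ATH livers genes lie on both sides of 0 in every replicate.

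Of 4 other genes of steps at or after squalene, 3 fell at 5% by limma and 1 of these at 1%. Tm7sf2, the sterol reductase that shares its step with Lbr, read 6.08, 6.00, 6.23 and 6.26 on the STD diet and 4.15, 4.06, 3.51 and 3.35 on the ATH diet, and fell by 2.38 (SE 0.20, limma adjusted p = 0.0026). Lbr, a receptor of the nuclear envelope with the same reductase activity, had a log2 fold change of 0.10 (SE 0.12, limma adjusted p = 0.611) and its diets overlapped. Without scaling between arrays it passed 5% as higher, as did 6991 of all 31056 detected probes. Fdft1, which makes squalene, fell by 2.49 (SE 0.37, limma adjusted p = 0.0118). A second Fdft1 probe gave -0.84 (adjusted p = 0.156), with overlap between diets. This second probe was much dimmer, with means of -3.75 in STD and -4.59 in ATH livers, against 3.75 and 1.26 for the standing probe. Erg28, a scaffold that holds the demethylating enzymes together, had -0.88 (SE 0.21), which passed 5% by limma without the replicate block (adjusted p = 0.0402) and not with it (0.0576). Faxdc2 was not matched to a probe and was not analysed here.

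The oxidative steps draw electrons from P450 reductase (Por) or from cytochrome b5 and its reductase. Of the 4 donor genes, 2 fell at 5% by limma: Cyb5b by 0.93 (SE 0.16, adjusted p = 0.0190) and Cyb5r3 by 0.76 (SE 0.15, adjusted p = 0.0254). Por had -0.85 (SE 0.26, adjusted p = 0.0759) and Cyb5a -0.50 (SE 0.19, adjusted p = 0.125), and both overlapped between diets. Without scaling between arrays 1 of the 4 passed as lower, as did 374 of all 31056 detected probes. Among 9 genes of the mevalonate steps and their branch to other isoprenoids, 8 fell at 5% and 2 of these at 1%, with a median of -2.08. Idi1, the isomerase of the isoprenoid unit, fell by 3.46 (SE 0.37, limma adjusted p = 0.0042). The array design places its probes on mm7 chr2, whereas RefSeq places its promoter on chr13 of GRCm38.p6. Which locus the probes read was not tested. With the replicate block, 6 of the 9 mevalonate genes passed 5%. Ggps1, which leads away from sterols, had 0.04 (limma adjusted p = 0.901) and overlapped on all 3 of its probes.

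Genes that regulate sterol supply were mixed: 5 of 9 fell at 5% by limma, 2 of them at 1%, and 4 passed 5% with the replicate block. Without scaling between arrays 2 fell and 2 rose at 5%, the latter being Srebf1 and Insig2. In that setting 374 of all 31056 detected probes fell at 5% and 6991 rose. The sterol carrier Stard4 fell by 1.98 (SE 0.19, adjusted p = 0.0036) and Insig1 by 1.81 (SE 0.25, adjusted p = 0.0096). Srebf2, which encodes SREBP-2, fell by 1.07 (SE 0.20, adjusted p = 0.0215). Srebf1, the related factor best known for fatty acid genes, had a log2 fold change of 1.02 (SE 0.31, limma adjusted p = 0.077), with overlap between diets.

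**Figure D4:**
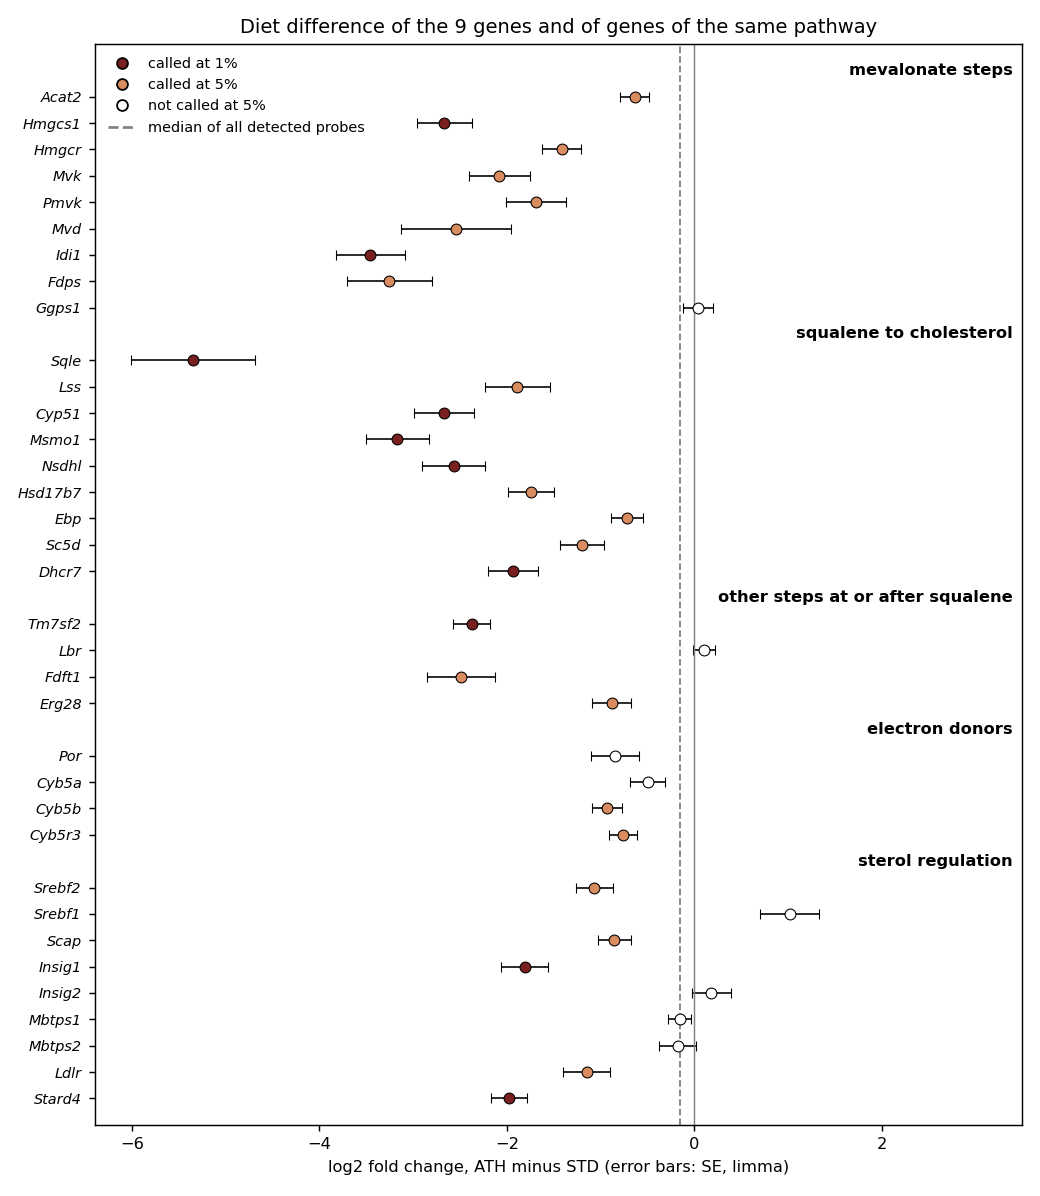
Log2 fold change (ATH minus STD) with its SE from limma (x axis) for the 9 genes and for genes of the mevalonate steps, other steps at or after squalene, electron donors and sterol regulation (y axis). Dark circles pass 1%, light ones 5% and open ones neither, and the dashed line is the median of all detected probes. Sqle lies farthest left at -5.35, and Ggps1 and Lbr lie at 0.04 and 0.10.

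The 9 genes' mean standardized profile was set against the standing probe of each of 16550 named genes over the 8 arrays, as a description that rests mostly on the diet difference (median r over all genes 0.33). The genes outside the lists with the highest Pearson r were Clgn (0.996), Mmab (0.995), P2rx3 (0.994), AI182371, Prss8, Stk36, Elp6, Prorp, Aldoc and Aldh1l1 (0.988). Of these, Prss8 had the largest difference, -2.41 (limma adjusted p = 0.0102), followed by Aldoc with -1.99 and Mmab with -1.43 (limma adjusted p = 0.0083 and 0.0066). The lowest r were those of Rassf1, Wls, Rnf145, Gna13 and Chsy1, from -0.984 to -0.979. Rnf145 rose by 1.39 (limma adjusted p = 0.0056).

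In bulk liver, fewer cells of a type and less RNA per cell cannot be told apart. Macrophage markers were higher on the ATH diet for 12 of 12 genes, 7 of them at 5% by limma and 4 with the replicate block. Of all 31056 detected probes 10223 were higher, 949 of them at 5% and 503 with the replicate block. The log2 of their summed signal was 5.85 to 6.30 on STD arrays and 6.80 to 9.25 on ATH arrays, and Gpnmb was well above background on 0 of 4 STD arrays. Hepatocyte markers were all detected, and their summed signal was 12.6 to 12.7 on STD arrays and 12.1 to 12.5 on ATH arrays. Alb, the brightest of them and so the largest part of this sum, was flagged as saturated on 2 arrays. Lower on the ATH diet were 14 of the 15 hepatocyte markers, 3 of them at 5% by limma (1 with the replicate block). Of all 31056 detected probes 20833 were lower, 1533 of them at 5% (880 with the replicate block). The median log2 fold change of the hepatocyte markers was -0.38, and it was 0.07 without scaling, -0.06 with spike-in scaling and 0.03 with quantile normalization. The part of either list in the sterol enzyme differences was not tested. Median log2 fold changes were 0.47 for 8 stellate cell, 0.27 for 6 endothelial, 0.42 for 5 cholangiocyte and 0.33 for 6 T and B cell markers, and 0.20 for the 3 detected of 5 pancreas or gut markers.

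The STD arrays shared 1 slide and the ATH arrays another, and a slide effect cannot be told apart from a diet effect. The 75th percentile before scaling was higher on ATH arrays by 0.447 and the median of 10 spike-in probes by 0.135, so the median log2 fold change of all probes was -0.15 as reported, 0.30 unscaled and 0.16 when spike-in probes set the scale. The share of calls at 5% that were higher on the ATH diet was 38.2%, and it was 94.9% unscaled, 86.4% by spike-in probes, 55.0% with the array median, 54.2% with quantile normalization, 49.3% with the percentile over probes detected on all arrays and 18.9% with normexp background. The 9 genes were lower without overlap under each of these settings, and their median was -1.49 unscaled and -1.63 by spike-in probes. By limma at 5%, Ebp alone lost its call under any of them, with -0.27 unscaled (adjusted p = 0.132), -0.41 by spike-in probes (0.0788), -0.37 with quantile normalization (0.104) and -0.65 with the array median (0.0554).

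**Figure D5:**
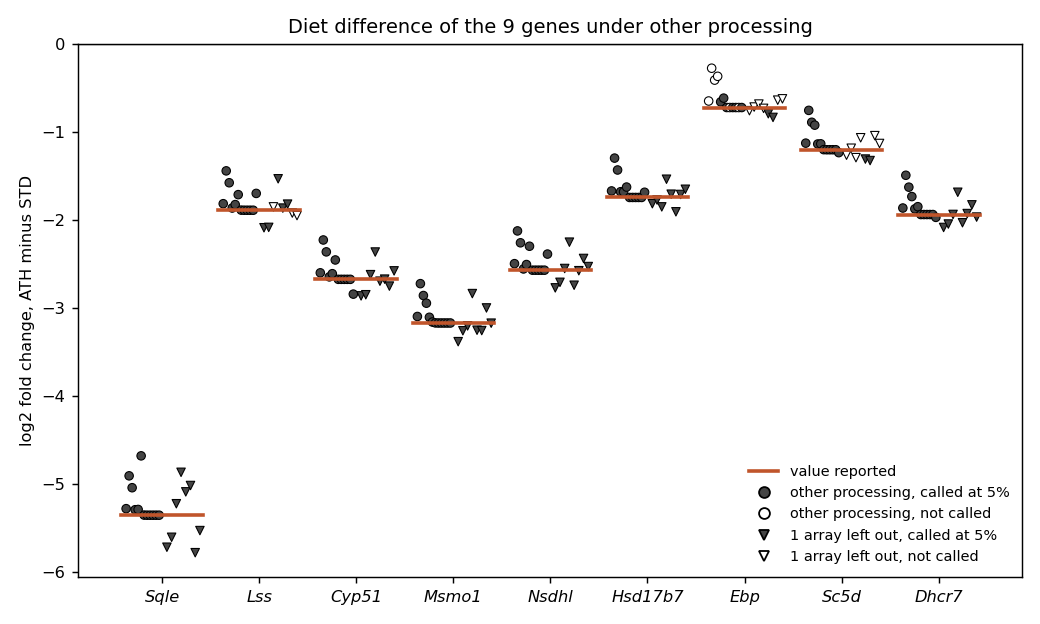
Log2 fold change (ATH minus STD, y axis) of the 9 genes (x axis) as reported (line), under other processing (circles) and with 1 array left out (triangles), filled where limma called it at 5%. The unequal-variance test, which keeps the fold changes and called none, is not drawn. All values lie below 0, and open symbols are seen for Lss, Ebp and Sc5d alone.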

How the data were processed

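Liver RNA of 8 mice, 4 per diet, was measured on Agilent 1-color arrays. The authors acquired the images with Agilent Feature Extraction 9.5 at its 1-color defaults, and each deposited file gives the intensity of every spot after background subtraction and detrending, with no scaling between arrays. Normalized log2 values from GeneSpring, deposited by the authors as well, served as an alternative. Diets were read from the labels. The 9 genes, the gene lists and the cell markers were chosen with earlier results of these data known. The named genes are the 9, the fixed pathway lists, and the 10 genes with the highest and 5 with the lowest correlation with the 9.

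Control spots and outlier spots were left out, spots of a probe were averaged, and the array's 75th percentile was subtracted from log2 signals. A probe was detected when well above background, positive and significant and no outlier on at least 3 of 4 arrays of either diet. Of 41174 probes, 22951 were named by accession through RefSeq, 6659 by symbol and 3109 by synonym, and 8455 kept the file's name. The number of arrays limits the precision. The spread is that between mice.

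Diet was fitted with limma 3.58.1 in R 4.3.3, two-sided, and the steps were tested on simulated data. Python 3.11.15 with numpy 2.4.6, pandas 2.3.3, scipy 1.17.1 and matplotlib 3.10.9 was used for the rest. Same-numbered arrays of the diets share a slide position. Their deviations correlated at 0.100, 0.230, 0.182 and 0.177 over probes, and those of differently numbered arrays at -0.251 to 0.175. The number was therefore also fitted as a block. No slide block could be fitted. Other alternatives were the scaling, normexp background (offset 50), the detection filter, the test, the probe per gene and each array left out. Positions of probes are those of the array design (mm7). Exon annotation of that assembly, and other genotypes and assays of the study, were not analysed here. Some genes of the pathway lists are not reported here and were left out of the counts of those lists.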

Additional observations from a re-analysis of the deposited data

Results flagged for a closer look

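For each of the 19 probes and both diets, the highest and the lowest of the 4 livers were checked for a gap to the others that is large against the whole range, which chance alone flags in about 1 in 20 groups. Of the 38 combinations, 1 was picked out. The Cyp51 probe A_52_P164161 read -1.65 in ATH replicate 3 and -2.05, -2.11 and -2.06 in ATH replicates 1, 2 and 4, so that the gap took 0.879 of the range. All 4 values lay below the lowest STD liver at 0.41.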

How the results depend on the processing

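Under the settings tried, each of the 9 genes stayed lower on the ATH diet. Ebp passed 5% in 6 of 13 alternatives and in 2 of 8 with an array left out, Sc5d in 12 of 13 and 2 of 8, Lss in 12 of 13 and 5 of 8, and the other 6 genes in 12 of 13 and 8 of 8. Over these genes and settings, 159 values kept their side of 5% and 30 no longer passed. Lss was lost when replicate 3 of either diet or ATH replicate 4 was left out, and Ebp and Sc5d when any array other than ATH replicate 1 or 2 was.

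Counts moved more. All probes called at 1% (164) became 488 without scaling, 84 with spike-in scaling, 454 with normexp, 37 without the detection filter, 253 with probes detected on all 8 arrays, 415 with an intensity trend, 0 by the methods' test and 5 to 1010 with an array left out. At 5% (2482) they became 7365 without scaling, 6394 with normexp, 1085 without the filter, 22 by the methods' test and 394 to 3986 with an array left out. Of the 9 genes, 5 passed 1%, against 1 with spike-in scaling, 0 without the filter, 0 by the methods' test and 0 to 6 with an array left out (0 without any of STD replicates 1, 2 and 3 or ATH replicates 1, 3 and 4, 2 without STD replicate 4, 6 without ATH replicate 2). At 5%, 9 became 0 by the methods' test and 6 to 9 with an array left out. With normexp, Cyp51 against Msmo1 (0.71) and Ebp against Sc5d (0.52) reached an exact permutation p of 0.0286, and the other 14 comparisons of consecutive genes under alternatives kept their side. A fit with the slide as a block was not run, since no slide holds both diets.

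With the replicate number as a block, that is, arrays paired by slide position, 0 probes passed 1% and 1383 passed 5%, and 0 and 8 of the 9 genes. At 5% it changed no call of the 9 genes other than that of Ebp. Signal over background limits the comparison for probes not detected on all 8 arrays: 27153 of the 31056 were, the 19 sterol enzyme probes among them.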
